A study of Oryza sativa with 9 samples.

Results

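Roots of the salt-tolerant rice SR86 were set against roots of the common rice R1, both grown in fresh water (FW), to describe how the strains differed before any salt was given. The members were all nuclear loci with a mean of at least 0.5 FPKM (mapped fragments scaled by transcript length and library depth) over the 6 FW libraries. These were 23037 loci of the 57624 nuclear loci and 57931 features in the table, and the other 34587 nuclear loci lay under that minimum. The choice used the mean over both strains and not the difference between them. A locus that was high in only 1 strain could pass through that strain alone: the R1 mean was under 0.5 FPKM for 1194 tested loci, of which 526 were called, and the SR86 mean for 1085, of which 626 were called.

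SR86, also called sea rice 86, is described by the study as a rice that grows in sea water, and R1 as a hybrid of japonica and indica with low salt tolerance. The labels put both under japonica and give neither a transgene nor a treatment. The study's genome sequencing, however, placed SR86 as an old indica type, near the point where indica and japonica part. The groups were 3 libraries of SR86 roots in FW and 3 libraries of R1 roots in FW, from biological replicates harvested a month after planting, and the 3 libraries of SR86 roots in sea water (SW) are given only beside single loci. One methods sentence assigns the waters to the strains the other way round, and the labels were followed. Reads of both strains were mapped to a single transcript set made from the japonica rice Nipponbare, so a value near 0 can mean little RNA or a sequence unlike that set, and these cannot be told apart here. Whether this mapping lowered values more in SR86 than in R1 was not tested. In bulk roots, fewer cells of a type and less RNA per cell cannot be told apart either.

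Roots take up water, nitrogen, phosphate and metals through carriers and channels in the membrane of their cells. They also build and loosen cell walls, make defence proteins and toxins against soil microbes, and read hormones such as cytokinin, auxin and jasmonate. Receptor-like kinases at the cell surface and intracellular resistance proteins sense microbes. Resistance genes and transposons are known to differ in sequence and copy number between rice strains.

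The R1 libraries lay closer together than the SR86 libraries. Across the tested loci the correlation of log2(FPKM + 0.5) was 0.983 to 0.994 between R1 libraries and 0.924 to 0.955 between SR86 libraries, and the median standard deviation was 0.297 in SR86 and 0.119 in R1. SR86 FW3 had the lowest correlations, 0.924 and 0.933 with SR86 FW1 and FW2. The number of reads relative to R1 FW1, estimated from the steps between low values, was 0.954 to 1.36 in SR86 and up to 1.66 in R1, so depth overlapped between the strains. The summed FPKM of the 54 mitochondrial genome features was 2518, 2280 and 992 in SR86 FW1, FW2 and FW3, against 347, 541 and 222 in R1 FW1, FW2 and FW3. The summed FPKM of the 103 plastid genome features was 939, 783 and 406 in SR86 and 230, 307 and 185 in R1, and that of the 61 pre-tRNA features was 739, 656 and 183 in SR86 and 92.3, 112 and 36.4 in R1. The part of these sums in the differences below was not tested.

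With limma on log2(FPKM + 0.5), 3214 of the 23037 loci were called, which is 14.0%. Calls required an adjusted p under 0.05 together with a 2-fold difference or more on that scale, which understates the change of low loci. Of these, 1548 (6.72%) were higher in SR86 and 1666 (7.23%) were lower. The median log2 fold change of all tested loci was -0.04, and it was -0.14 when the libraries were scaled to equal sums over nuclear loci. The libraries of the strains stood apart at 3213 of the called loci, but they also stood apart at 50.9% of all tested loci. An unadjusted p under 0.05 was reached by 44.0% of the tested loci.

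Large differences were found in both directions in similar numbers. At least 4-fold were 463 loci higher in SR86 and 491 lower, at least 8-fold 168 and 179, and at least 32-fold 26 and 23. The share called was 20.0% at a mean of 0.5 to 1 FPKM, 9.36% at 10 to 100 FPKM and 13.5% at 100 FPKM and more. Of the 3214 calls, 1555 held in each of the 6 fits that left out 1 library. The number called was 1692 without R1 FW1 (911 higher and 781 lower) and 1877 without R1 FW3 (964 and 913). Without SR86 FW3 it was 4709 (2063 and 2646).

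SR86 FW3 was most often the SR86 library nearest to R1. Among the loci called lower, the median log2 difference from the R1 mean was -1.72, -1.68 and -1.28 in SR86 FW1, FW2 and FW3, and SR86 FW3 was the closest to R1 at 58.0% of them. Among the loci called higher, the medians were 1.56, 1.7 and 1.5, and SR86 FW3 was the closest at 46.1%.

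Annotations were at hand for 5839 of the tested loci, because only loci in the study's lists carried one. Of these, 3537 were loci that the study had listed as differing between the same strains, so the annotated loci are selected for difference: 46.3% of them were called, 22.5% higher and 23.8% lower in SR86, against 2.98% of the loci with no annotation. The family counts below are read against 22.5% and 23.8%, and they are not independent evidence of a direction. Family counts at an unadjusted p under 0.05 in limma have no such share beside them. At hand is only the 44.0% of all tested nuclear loci in either direction, which are not selected for difference. Those counts therefore do not show a shift of a family. Outside the 8 families that the study tabulated, 43 families of annotated loci in 13 classes were described, with 1824 tested loci. Counts of single families moved with the libraries used: of 86 family counts (2 directions in each family), 54 moved by over 1.5 times without R1 FW1, 25 without R1 FW2, 49 without R1 FW3, 11 without SR86 FW1, 23 without SR86 FW2 and 17 without SR86 FW3.

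**Figure D1:**
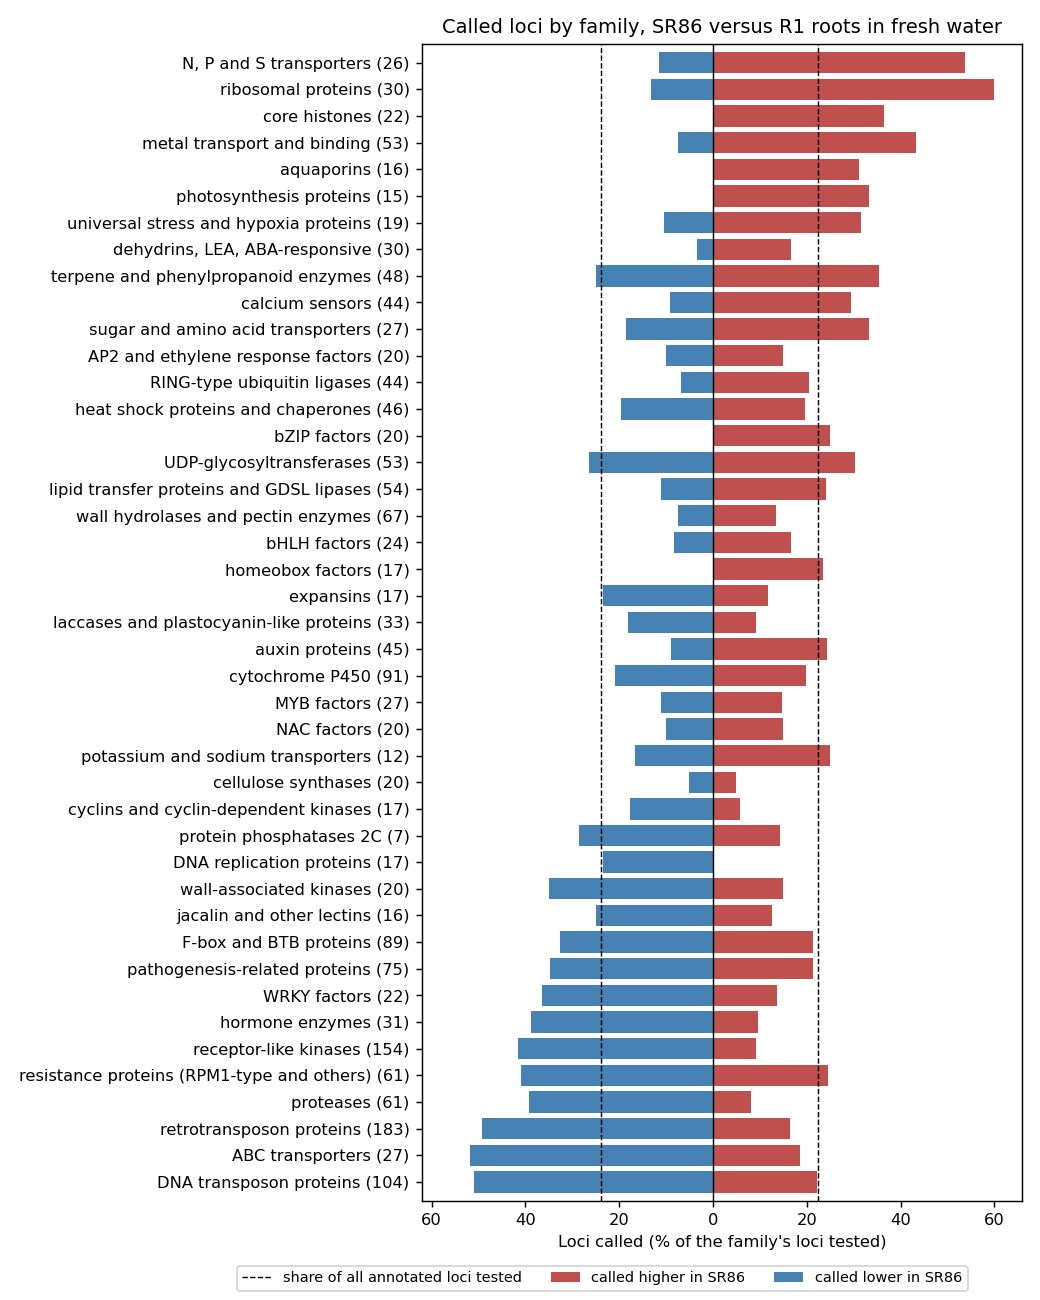
Bars show, for each of 43 families, the percent of its tested loci called higher in SR86 (red, to the right) and lower in SR86 (blue, to the left), with the number of loci tested in parentheses and the families ordered by median log2 fold change. Dashed lines mark the shares of all annotated loci tested, 22.5% higher and 23.8% lower. The transporters of nitrogen, phosphate and sulphate (53.8%) and the ribosomal proteins (60.0%) had the highest shares called higher, and the ABC transporters (51.9%) and DNA transposon proteins (51.0%) the highest shares called lower.

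The family of nitrogen, phosphate and sulphate transporters was more often called higher than lower in SR86 roots. It was matched by words in the annotations and did not hold carriers alone. Of 28 annotated loci 26 were tested, and 14 rose and 3 fell (53.8% and 11.5%), with a median log2 fold change of 1.19. Without R1 FW1 the counts were 9 and 2, without R1 FW2 9 and 3, and without R1 FW3 7 and 2. An SPX domain-containing protein, LOC_Os03g29250, of a family that senses phosphate, had 33.2, 92.8 and 41.6 FPKM in the SR86 libraries and 5.58, 6.22 and 4.82 FPKM in the R1 libraries. The libraries did not overlap, and the difference was 3.08 ± 0.37 (log2 fold change ± SE, adjusted p = 0.00268). A peptide transporter of the PTR2 type, LOC_Os06g15370, was the locus of the family with the largest fall. It had 17.2, 13.2 and 13.4 FPKM in SR86 and 56.3, 59.7 and 54.9 FPKM in R1 (log2 fold change -1.94, adjusted p = 0.000274).

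Proteins that carry or bind metals were more often called higher than lower in SR86. Of 57 annotated loci 53 were tested, 23 rose and 4 fell (43.4% and 7.55%), and the median was 0.99. The counts were 12 and 1 without R1 FW1, and 11 and 2 without R1 FW3. Nicotianamine synthase makes nicotianamine, which binds iron and other metals and is the precursor of the phytosiderophores of grasses. Its locus LOC_Os03g19427 had 8.6, 236 and 23.3 FPKM in SR86 and 1.15, 2.37 and 0.71 FPKM in R1. The SR86 libraries spread widely at this locus, SR86 FW2 far above the others, and the log2 fold change of 4.38 had an SE of 1.13 (adjusted p = 0.0317). Its call was lost without R1 FW1, FW2 or FW3 (adjusted p = 0.104, 0.0687 and 0.116). A heavy metal-associated domain protein, LOC_Os02g32814, was lower, at 8.68, 10.8 and 7.88 FPKM in SR86 and 22.4, 20.9 and 22.2 FPKM in R1 (log2 fold change -1.23, adjusted p = 0.00233).

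Aquaporins, the water channels of the membrane, were called in 1 direction in the fit of all 6 libraries, though 2 had a negative fold change. All 16 annotated loci were tested, 5 rose and none fell (31.2%) in the limma fit, with a median of 0.96 and 10 higher and 0 lower at an unadjusted p under 0.05, and their summed value was 4054, 4502 and 3072 FPKM in SR86 and 1746, 1990 and 1553 FPKM in R1. The count of aquaporins that rose was 3 without R1 FW1, R1 FW3 or SR86 FW2, and without SR86 FW3 10 rose and 1 fell. Of 27 carriers of sugars and amino acids, 9 rose and 5 fell, a share called higher of 33.3%. Without R1 FW1 these were 3 and 2, without R1 FW2 5 and 3, and without R1 FW3 4 and 3. Of 12 potassium and sodium transporters, 3 rose and 2 fell (25.0% and 16.7%), the share higher near the 22.5% of all annotated loci, and 1 rose and 2 fell without R1 FW1. A potassium transporter, LOC_Os03g37930, had 0.70, 0.02 and 1.10 FPKM in SR86 and 6.59, 4.0 and 8.49 FPKM in R1 (log2 fold change -2.72, adjusted p = 0.00936).

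The ABC transporters, pumps that use ATP to export many kinds of molecule, were more often called lower than higher. Of 27 tested loci of 31, 5 rose and 14 fell (18.5% and 51.9%), with a median of -1.06. The counts were 4 and 6 without R1 FW1 or R1 FW3, 4 and 9 without SR86 FW1, and 4 and 8 without SR86 FW2. The pleiotropic drug resistance protein LOC_Os01g42380 had 8.34, 5.17 and 40.0 FPKM in SR86 and 100, 66.6 and 122 FPKM in R1. Its SR86 FW3 value lay nearest to R1, and its call (log2 fold change -2.89, adjusted p = 0.027) was lost in 5 of the 6 fits that left out 1 library, with adjusted p of 0.0948, 0.0587 and 0.105 without R1 FW1, FW2 and FW3 and of 0.0732 and 0.0716 without SR86 FW1 and FW2. Another pleiotropic drug resistance protein, LOC_Os01g24010, was higher, at 4.29, 7.46 and 7.5 FPKM in SR86 and 2.01, 1.78 and 2.0 FPKM in R1 (log2 fold change 1.47, adjusted p = 0.00766).

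**Figure D2:**
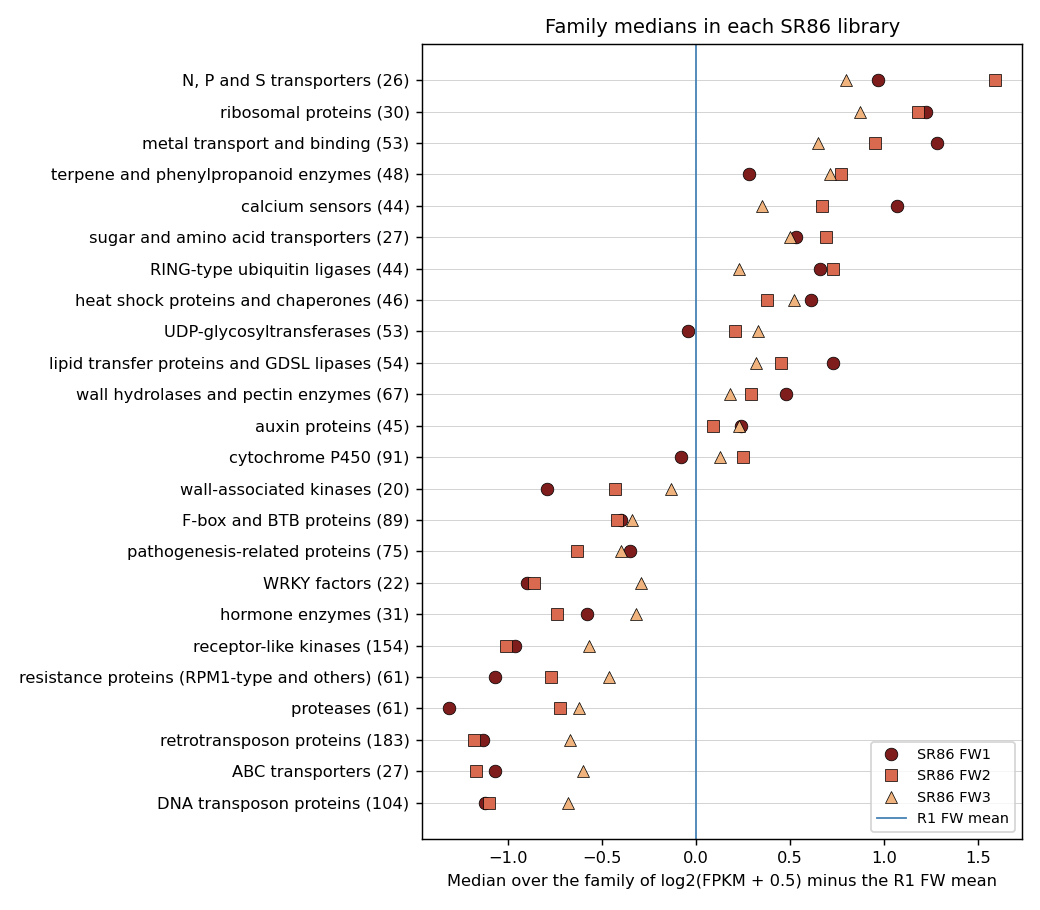
Points show the median over the tested loci of each family of log2(FPKM + 0.5) minus the R1 FW mean, 1 point for each SR86 library, for the 24 families with at least 10 called loci, and the vertical line at 0 is the R1 mean. All 3 SR86 libraries lay on the same side of R1 for the transporters of nitrogen, phosphate and sulphate (0.97, 1.59 and 0.80) and for the receptor-like kinases (-0.96, -1.01 and -0.57), with SR86 FW3 nearest to R1 in both.

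Ribosomal proteins and core histones were more often called higher than lower in SR86. All 30 annotated ribosomal protein loci were tested, and 18 rose and 4 fell (60.0% and 13.3%), with a median of 1.06. Without R1 FW3, 11 rose and 3 fell. The 4 falls included the largest fall of the class, in the 60S ribosomal protein L44 locus LOC_Os07g33860, which had 0.79, 0 and 0 FPKM in SR86 and 111, 130 and 101 FPKM in R1 (log2 fold change -7.38, adjusted p = 0.000106). The largest rise was in an L13 family protein, LOC_Os01g67200, at 95.7, 95.1 and 80.2 FPKM in SR86 and 0.63, 0.37 and 0 FPKM in R1 (log2 fold change 6.84, adjusted p = 5.87e-05). Ribosomal proteins have several near-identical gene copies, and the authors' counting divided shared reads among copies, so the value of a single copy is uncertain.

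All 22 core histone loci had a positive fold change, and 8 of them (36.4%) rose and none fell, with a median of 1.0 and 15 higher and 0 lower at an unadjusted p under 0.05 in limma. The count was 2 without R1 FW1, 3 without R1 FW3, 5 without SR86 FW1, 2 without SR86 FW2 and 11 without SR86 FW3. A histone domain locus, LOC_Os01g05610, had 161, 175 and 96.3 FPKM in SR86 and 13.6, 16.5 and 10.8 FPKM in R1, a difference of 3.33 ± 0.26 (adjusted p = 0.000542). The other lists of dividing cells had negative medians. Of 17 cyclins and cyclin-dependent kinases 1 rose and 3 fell (5.88% and 17.6%, median -0.19, with 0 and 3 without R1 FW1, FW2 or FW3 or SR86 FW2). Of 17 DNA replication proteins none rose and 4 fell (23.5%, median -0.39), with 2 higher and 7 lower at an unadjusted p under 0.05 in limma. The share of DNA replication loci called lower was near the 23.8% of all annotated loci. The number of DNA replication loci called lower was 1 without R1 FW1, R1 FW2, R1 FW3 or SR86 FW2, and 2 without SR86 FW1. Without SR86 FW3, 1 DNA replication locus rose and 5 fell. The summed cyclin value was 25.9, 28.0 and 30.1 FPKM in SR86 and 43.5, 49.0 and 40.2 FPKM in R1. The summed DNA replication value did not fall: it was 115, 103 and 84.6 FPKM in SR86 and 84.4, 90.2 and 77.9 FPKM in R1. Much of it came from LOC_Os09g34850, a DNA polymerase delta subunit, at 93.7, 83.6 and 58.9 FPKM in SR86 and 48.8, 54.8 and 44.0 FPKM in R1. One cyclin, LOC_Os05g26020, had 0.49, 0.64 and 0.52 FPKM in SR86 and 7.26, 7.51 and 6.68 FPKM in R1 (log2 fold change -2.87, adjusted p = 0.000134).

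Surface receptors were more often called lower than higher in SR86. Of 185 annotated receptor-like kinases 154 were tested, and 14 rose and 64 fell (9.09% and 41.6%), with a median of -0.90 and 116 negative fold changes. The counts were 8 and 27 without R1 FW1, 7 and 31 without R1 FW3, and 10 and 39 without SR86 FW2. The largest fall was in LOC_Os06g16300, annotated as a kinase associated with BRASSINOSTEROID INSENSITIVE 1, the brassinosteroid receptor. It had 1.91, 4.72 and 2.50 FPKM in SR86 and 31.8, 32.6 and 35.5 FPKM in R1 (log2 fold change -3.33, adjusted p = 0.000699). A lectin-like receptor kinase, LOC_Os08g03170, had 9.61, 3.89 and 5.92 FPKM in SR86 and was listed at 0 in the 3 R1 libraries (adjusted p = 0.000674).

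Among wall-associated kinases, 3 of 20 rose and 7 fell (35.0% lower). Without R1 FW1 or R1 FW3, 3 fell. OsWAK105, LOC_Os10g06140, had 0.43, 1.26 and 1.24 FPKM in SR86 and 7.64, 5.45 and 9.13 FPKM in R1 (log2 fold change -2.45, adjusted p = 0.00356). In SR86 roots in SW the same locus had 18.6, 14.0 and 10.1 FPKM. Calcium sensors, which bind the calcium that many signals release in the cell, were more often higher: of 44, 13 rose and 4 fell (29.5% and 9.09%). Without R1 FW1, R1 FW2 or SR86 FW2 these counts were 9 and 3. They were 10 and 3 without R1 FW3, 10 and 4 without SR86 FW1, and 20 and 5 without SR86 FW3. The calmodulin-related sensor OsCML29, LOC_Os06g47640, had 68.3, 102 and 66.8 FPKM in SR86 and 14.7, 17.6 and 11.4 FPKM in R1 (log2 fold change 2.40, adjusted p = 0.00103). Of 7 protein phosphatases 2C, of which a clade acts in abscisic acid signalling, 1 rose and 2 fell (14.3% and 28.6%). LOC_Os01g37130 had 8.47, 12.0 and 10.6 FPKM in SR86 and 2.18, 2.83 and 3.11 FPKM in R1 (log2 fold change 1.76, adjusted p = 0.00194), and LOC_Os02g38780 had 2.89, 2.44 and 2.05 FPKM in SR86 and 9.57, 9.43 and 8.04 FPKM in R1 (log2 fold change -1.69, adjusted p = 0.00133).

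Resistance proteins that the study's NB-ARC and NBS-LRR lists did not hold changed in both directions. Of 81 annotated loci 61 were tested, 15 rose and 25 fell (24.6% and 41.0%), and the median was -0.95. Without R1 FW1, 13 rose and 13 fell. The largest rise was in an RPM1-type protein, LOC_Os10g04674, at 10.6, 13.1 and 17.8 FPKM in SR86 and 0.05, 0.06 and 0.02 FPKM in R1 (log2 fold change 4.69, adjusted p = 7.46e-05). Of 16 jacalin and other lectins, which bind sugars, 2 rose and 4 fell (12.5% and 25.0%), the share lower near the 23.8% of all annotated loci. Without R1 FW1 or R1 FW3, 1 rose and 1 fell. The jacalin-like protein LOC_Os10g04270 had 25.7, 21.2 and 15.4 FPKM in SR86 and 0, 0 and 0.17 FPKM in R1 (log2 fold change 5.24, adjusted p = 7.33e-05).

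Antimicrobial proteins held the most highly expressed locus of the class leaders. All 75 annotated pathogenesis-related and antimicrobial loci were tested, 16 rose and 26 fell (21.3% and 34.7%), and the median was -0.50. Without R1 FW1 these were 7 and 12, without R1 FW2 11 and 15, and without R1 FW3 8 and 12. A thaumatin, LOC_Os12g43410, of a pathogenesis-related group also known as PR-5, had 709, 612 and 1196 FPKM in SR86 and 11.5, 8.95 and 20.9 FPKM in R1. The libraries were far apart, with a log2 fold change of 5.90 ± 0.37 (adjusted p = 0.00021), and in SR86 roots in SW the locus had 81.0, 117 and 206 FPKM. A thionin-like peptide, LOC_Os07g25050, of a group of small membrane-damaging peptides, was listed at 0 in the SR86 libraries in FW and SW and had 191, 165 and 194 FPKM in R1 (adjusted p = 3.19e-06).

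**Figure D3:**
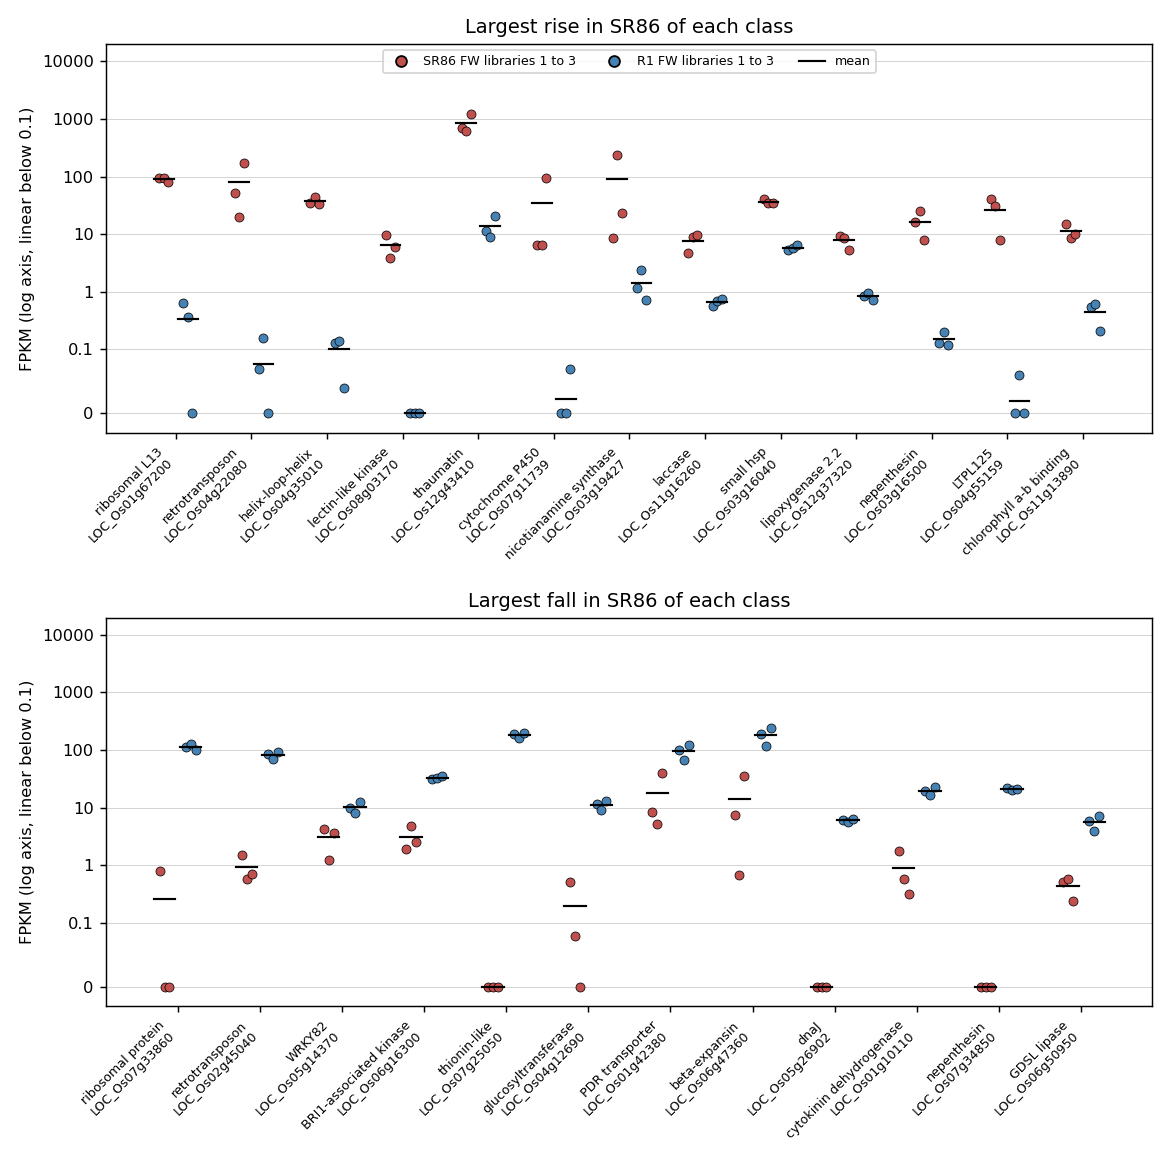
Points show FPKM in each of the 3 SR86 FW libraries (red, left) and the 3 R1 FW libraries (blue, right) for the named locus with the largest rise (top) and the largest fall (bottom) of each class, on a log axis that is linear below 0.1, with a black bar at each mean. Only called loci whose libraries stood apart and whose higher mean was at least 5 FPKM could be named, so some classes held larger changes at other loci. The thaumatin LOC_Os12g43410 sat at 612 to 1196 in SR86 and 8.95 to 20.9 in R1, and the thionin-like LOC_Os07g25050 at 0 in SR86 and 165 to 194 in R1.

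Enzymes of secondary metabolism moved both ways. Of 91 tested cytochrome P450 loci, haem enzymes that oxidise small molecules, 18 rose and 19 fell (19.8% and 20.9%), near the shares of all annotated loci. Without R1 FW1 these were 8 and 8, without R1 FW2 11 and 11, and without R1 FW3 10 and 7. A P450, LOC_Os07g11739, had 6.40, 6.46 and 93.0 FPKM in SR86 and 0, 0 and 0.07 FPKM in R1. Its call (adjusted p = 0.0147) was lost without R1 FW1 (adjusted p = 0.0613) or R1 FW3 (adjusted p = 0.0628). LOC_Os02g36190 was the P450 with the largest fall, at 5.88, 9.11 and 26.0 FPKM in SR86 and 134, 90.2 and 160 FPKM in R1 (log2 fold change -3.41, adjusted p = 0.00625).

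Of 48 enzymes of terpenes and phenylpropanoids, 17 rose and 12 fell (35.4% and 25.0%). Without R1 FW1 8 rose and 3 fell, and without R1 FW3 9 rose and 3 fell, while 6 fell without R1 FW2, SR86 FW1 or SR86 FW2. A locus annotated as ent-kaurene synthase B, the kind of enzyme that makes the precursor of gibberellins, was listed at 0 in R1. This locus, LOC_Os11g28490, had 2.41, 5.87 and 7.37 FPKM in SR86 (adjusted p = 0.00194), and a terpene synthase of near locus number, LOC_Os11g28530, was lower, at 0.13, 0.23 and 1.46 FPKM in SR86 and 10.3, 7.04 and 10.3 FPKM in R1 (log2 fold change -3.31, adjusted p = 0.00417). Of 53 UDP-glycosyltransferases, which attach sugars to hormones and other metabolites, 16 rose and 14 fell (30.2% and 26.4%), and 11 rose and 9 fell without R1 FW1. LOC_Os04g12690, annotated as an N-hydroxythioamide S-beta-glucosyltransferase, had 0.52, 0.08 and 0 FPKM in SR86 and 11.5, 9.12 and 13.1 FPKM in R1 (log2 fold change -4.12, adjusted p = 0.000417).

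Enzymes that make or break down hormones were more often lower. Of 31 loci, 3 rose and 12 fell (9.68% and 38.7%), and the median was -0.75. Between 8 and 12 fell in the fits without 1 library, the fewest without R1 FW1 or R1 FW2. A cytokinin dehydrogenase, LOC_Os01g10110, which breaks down cytokinin, had 1.79, 0.59 and 0.32 FPKM in SR86 and 19.7, 16.3 and 22.6 FPKM in R1 (log2 fold change -3.97, adjusted p = 0.00115). A plastid lipoxygenase, LOC_Os12g37320, of the enzyme group that opens jasmonate synthesis, was higher, at 9.44, 8.63 and 5.27 FPKM in SR86 and 0.84, 0.96 and 0.73 FPKM in R1 (log2 fold change 2.59, adjusted p = 0.00106). Of 45 proteins of auxin transport and response, 11 rose and 4 fell (24.4% and 8.89%), the share higher near the 22.5% of all annotated loci. These counts were 2 and 1 without R1 FW1, 6 and 2 without R1 FW2, 3 and 2 without R1 FW3, 8 and 2 without SR86 FW2 and 9 and 7 without SR86 FW3. LOC_Os08g44750, annotated as auxin-induced protein 5NG4, had 12.4, 8.84 and 6.54 FPKM in SR86 and 1.48, 1.97 and 1.87 FPKM in R1 (log2 fold change 2.06, adjusted p = 0.00273).

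Few cell wall loci were called for their number. Of 67 wall hydrolases, pectin enzymes and structural wall proteins 9 rose and 5 fell (13.4% and 7.46%), and of 20 cellulose synthases and related enzymes 1 rose and 1 fell (5.0% each). Without R1 FW1 3 of the 67 rose and 1 fell, and without R1 FW3 4 rose and 1 fell. A glycine-rich wall protein, LOC_Os10g31660, had 298, 231 and 136 FPKM in SR86 and 50.8, 59.4 and 38.7 FPKM in R1 (log2 fold change 2.09, adjusted p = 0.00553). Of 17 expansins, which loosen the wall as cells grow, 2 rose and 4 fell (11.8% and 23.5%), the share lower near the 23.8% of all annotated loci. These counts were 0 and 1 without R1 FW1, 1 and 2 without R1 FW2, 1 and 0 without R1 FW3, 1 and 2 without SR86 FW1 and 0 and 2 without SR86 FW2. The beta-expansin LOC_Os06g47360 had 7.57, 0.69 and 35.1 FPKM in SR86 and 190, 117 and 242 FPKM in R1. The SR86 values of this expansin spread widely, and its call (log2 fold change -4.65 ± 1.14, adjusted p = 0.0271) was lost without R1 FW1, FW2 or FW3 (adjusted p = 0.0941, 0.064 and 0.103) and without SR86 FW1 (adjusted p = 0.062). Of 33 laccases and plastocyanin-like copper proteins 3 rose and 6 fell (9.09% and 18.2%), with 2 and 1 without R1 FW1, 3 and 2 without R1 FW2, 2 and 2 without R1 FW3, and 7 and 10 without SR86 FW3. A laccase, LOC_Os11g16260, of a group that acts in lignin formation, had 4.70, 8.99 and 9.56 FPKM in SR86 and 0.57, 0.70 and 0.74 FPKM in R1 (log2 fold change 2.76, adjusted p = 0.00145), and 0.34, 0.33 and 3.15 FPKM in SR86 roots in SW.

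Transcription factors were called in both directions. Of 22 WRKY factors, which act in defence and stress, 3 rose and 8 fell (13.6% and 36.4%), with a median of -0.72, and without R1 FW1 none rose and 6 fell. WRKY82, LOC_Os05g14370, had 4.23, 1.23 and 3.68 FPKM in SR86 and 9.75, 8.05 and 12.7 FPKM in R1 (log2 fold change -1.69, adjusted p = 0.0254). In SR86 roots in SW it had 82.7, 33.0 and 97.4 FPKM. Its FW call was lost without R1 FW1, FW2 or FW3 (adjusted p = 0.0908, 0.0572 and 0.102). The bZIP factors had 5 of 20 loci higher and none lower (25.0%), and the homeobox factors 4 of 17 higher and none lower (23.5%), both near the 22.5% of all annotated loci. At an unadjusted p under 0.05 in limma these were 12 and 2 bZIP and 6 and 1 homeobox loci, and without R1 FW1 2 loci of each family were called higher. Without SR86 FW3, 4 rose and 1 fell in each of these 2 families. The largest rise was in a helix-loop-helix factor, LOC_Os04g35010, at 34.7, 44.6 and 33.6 FPKM in SR86 and 0.13, 0.14 and 0.04 FPKM in R1 (log2 fold change 5.97, adjusted p = 2.55e-05), and SR86 roots in SW had 42.8, 44.8 and 38.8 FPKM. Of the MYB, NAC, AP2 and helix-loop-helix families, with 20 to 27 tested loci each, 3 or 4 loci rose and 2 or 3 fell in each. Their shares were 14.8% to 16.7% higher and 8.33% to 11.1% lower, under those of all annotated loci. Without R1 FW1 the counts were 0 and 1 for MYB, 2 and 1 for NAC, 0 and 0 for AP2 and 2 and 0 for helix-loop-helix loci, and without R1 FW3 they were 0 and 1, 3 and 0, 1 and 1, and 2 and 0 in the same order. Without SR86 FW3 they were 7 and 5, 5 and 1, 6 and 3, and 4 and 3. A NAC factor, LOC_Os09g33490, had 66.8, 83.5 and 74.9 FPKM in SR86 and 26.8, 33.3 and 19.9 FPKM in R1 (log2 fold change 1.5, adjusted p = 0.00387).

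Stress proteins were called in both directions. Of 46 heat shock proteins and chaperones, which keep other proteins folded, 9 rose and 9 fell (19.6% each), and 5 rose and 6 fell without R1 FW3. An hsp20 protein, LOC_Os03g16040, had 40.1, 35.4 and 34.4 FPKM in SR86 and 5.28, 5.73 and 6.45 FPKM in R1 (log2 fold change 2.56, adjusted p = 8.91e-05). A dnaJ chaperone, LOC_Os05g26902, was listed at 0 in SR86 and had 6.16, 5.69 and 6.28 FPKM in R1 (adjusted p = 5.87e-05). Of 30 dehydrins, late embryogenesis abundant (LEA) and abscisic acid-responsive proteins, which build up when water is short, 5 rose and 1 fell (16.7% and 3.33%), fewer than the shares of all annotated loci, and 3 rose without R1 FW3 and 7 without SR86 FW1. Of 19 universal stress and hypoxia proteins 6 rose and 2 fell (31.6%), and 3 rose without R1 FW1, R1 FW3 or SR86 FW2. The universal stress protein LOC_Os12g36630 had 75.0, 55.0 and 37.9 FPKM in SR86 and 10.6, 10.8 and 9.27 FPKM in R1 (log2 fold change 2.35, adjusted p = 0.00152).

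Proteases were more often called lower than higher in SR86. Of 64 annotated loci 61 were tested, 5 rose and 24 fell (8.2% and 39.3%), with a median of -1.0. Without R1 FW1 these were 4 and 11, without R1 FW2 5 and 14, and without R1 FW3 3 and 10. The extremes in both directions were nepenthesin-type aspartic proteinases. LOC_Os03g16500 had 16.2, 24.9 and 7.98 FPKM in SR86 and 0.13, 0.20 and 0.12 FPKM in R1 (log2 fold change 4.56, adjusted p = 0.000715), and LOC_Os07g34850 was listed at 0 in SR86 and had 22.0, 20.1 and 21.3 FPKM in R1 (adjusted p = 2.06e-05). F-box and BTB proteins, which choose the targets of ubiquitin ligases, had 19 higher and 29 lower of 89 (21.3% and 32.6%), and 11 and 21 without R1 FW1. The F-box protein OsFBX437, LOC_Os12g03594, had 0.03, 0 and 0 FPKM in SR86 and 8.99, 8.57 and 10.7 FPKM in R1 (log2 fold change -4.28, adjusted p = 5.03e-05). Of 44 RING-type ubiquitin ligases 9 rose and 3 fell (20.5% and 6.82%), the share higher near the 22.5% of all annotated loci. Without R1 FW1 2 rose and 1 fell, and without R1 FW3 3 rose and 2 fell. The RING-H2 protein LOC_Os02g35329 had 1.39, 1.19 and 1.70 FPKM in SR86 and 11.1, 9.84 and 13.3 FPKM in R1 (log2 fold change -2.62, adjusted p = 0.000313).

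Lipid transfer proteins and GDSL lipases, secreted proteins that bind or cut lipids, had 13 loci higher and 6 lower of 54 (24.1% and 11.1%), 6 and 4 without R1 FW1, 8 and 4 without R1 FW2, and 7 and 3 without R1 FW3. The lipid transfer protein LTPL125, LOC_Os04g55159, had 40.2, 31.1 and 7.82 FPKM in SR86 and 0, 0.06 and 0 FPKM in R1 (log2 fold change 5.41, adjusted p = 0.00167). It was listed at 0 in all 3 libraries of SR86 roots in SW. A GDSL-like lipase, LOC_Os06g50950, had 0.52, 0.57 and 0.24 FPKM in SR86 and 5.94, 3.97 and 7.04 FPKM in R1 (log2 fold change -2.69, adjusted p = 0.00123).

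Photosynthesis proteins, used as markers of tissue other than root, were called higher in part. All 15 had a positive fold change, and 5 rose and none fell (33.3%), with 8 higher and 0 lower at an unadjusted p under 0.05 in limma. The count was 2 without R1 FW1 or R1 FW3 and 10 without SR86 FW3. Their summed value was 152, 125 and 84.9 FPKM in SR86 and 48.0, 58.4 and 37.9 FPKM in R1. None of the 15 was at 0 in all 6 libraries. A chlorophyll a-b binding protein, LOC_Os11g13890, which holds chlorophyll in the light-harvesting antenna, had 14.9, 8.54 and 10.2 FPKM in SR86 and 0.54, 0.61 and 0.21 FPKM in R1 (log2 fold change 3.61, adjusted p = 0.000469). The part of any other tissue in the family counts was not tested.

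Transposon proteins, of which the retrotransposon proteins were the largest of the 43 families, were more often called lower than higher in SR86. Of 238 annotated retrotransposon loci, elements copied through RNA, 183 were tested, and 30 rose and 90 fell (16.4% and 49.2%), with a median of -1.04. Of 134 DNA transposon loci 104 were tested, 23 rose and 53 fell (22.1% and 51.0%), with a median of -1.06. Without R1 FW1 the retrotransposon counts were 17 and 54 and the DNA transposon counts 15 and 37, and without R1 FW3 the retrotransposon counts were 19 and 64. The retrotransposon locus LOC_Os04g22080 had 52.3, 19.5 and 173 FPKM in SR86 and 0.07, 0.16 and 0 FPKM in R1 (log2 fold change 6.63, adjusted p = 0.00183). LOC_Os02g45040 had 1.51, 0.58 and 0.72 FPKM in SR86 and 84.5, 69.4 and 91.9 FPKM in R1 (log2 fold change -5.89, adjusted p = 5.87e-05). A DNA transposon of the CACTA class, LOC_Os08g36880, had 10.7, 15.1 and 16.3 FPKM in SR86 and was listed at 0 in R1 (adjusted p = 5.87e-05). Repeated elements share sequence, so reads of several copies may stand at 1 locus.

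Some loci were listed at 0 in a whole strain. All R1 libraries were at 0 for 254 tested loci, of which 59 had an SR86 mean of at least 5 FPKM and 32 of those were called. All SR86 FW libraries were at 0 for 141 tested loci, of which 27 had an R1 mean of at least 5 FPKM and 26 were called. SR86 roots in SW, which had no part in the choice, are of the same strain. Of the 32 called loci at 0 in R1, 26 had at least 1 FPKM in all 3 SW libraries and none was at 0 in all 3, and of the 26 called loci at 0 in SR86 in FW, 17 were at 0 in all 3 SW libraries and 1 had at least 1 FPKM in all 3. Most called loci of either kind had no named function: 17 and 11 were annotated only as expressed proteins.

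Among loci with a named function at 0 in R1, the highest SR86 means were those of an ATPase and a peptide transporter. The locus annotated as ATPase 3, LOC_Os12g28177, had 33.5, 28.2 and 21.1 FPKM in SR86 in FW, and 0, 0.82 and 0.02 FPKM in SW. The antigen peptide transporter-like locus LOC_Os03g54880 had 40.4, 30.0 and 5.07 FPKM in FW, and 0.41, 0 and 0.95 FPKM in SW. These loci were thus near 0 in SR86 in SW as well. The defensin-like DEFL48, LOC_Os11g47120, of a group of antimicrobial peptides, had 17.8, 15.4 and 23.3 FPKM in SR86 in FW and 25.2, 23.9 and 18.4 FPKM in SW. An NB-ARC protein, LOC_Os11g34880, of the intracellular immune receptors, had 9.36, 9.35 and 7.74 FPKM in FW. A calmodulin-binding protein, LOC_Os11g44170, had 3.53, 9.86 and 10.4 FPKM in FW. Their adjusted p-values in limma were 3.45e-05 to 0.00426. The loci were chosen for 0 in R1 and a high SR86 mean, so these p-values are no separate evidence.

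Among loci with a named function at 0 in SR86 in FW, the thionin-like LOC_Os07g25050 had the highest R1 mean. LOC_Os06g24920, annotated as SAR DNA-binding protein-like, followed with 55.6, 59.1 and 49.9 FPKM in R1, and had 4.73, 0.22 and 0.42 FPKM in SR86 in SW. The nepenthesin LOC_Os07g34850 came next, and a plastocyanin-like protein, LOC_Os06g50420, had 12.2, 9.14 and 14.1 FPKM in R1 and 0 in all SR86 libraries, SW included. LOC_Os06g20500, annotated as like a positive effector of the tRNA-splicing endonuclease, had 9.68, 4.35 and 15.1 FPKM in R1. In SR86 roots in SW it had 6.05, 2.18 and 4.71 FPKM, the only one of these 5 loci with at least 1 FPKM in all 3 SW libraries. Adjusted p-values in limma were 3.19e-06 to 0.00124, and they too follow from a choice of loci at 0 in 1 strain and high in the other.

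Called loci stood beside each other on the chromosomes. Neighbours are consecutive tested loci in the order of their locus numbers. The next tested locus was also called higher for 225 of 1547 loci called higher (14.5%), against 6.72% of all loci, and it was called lower for 137 (8.86%). It was also called lower for 251 of 1663 loci called lower (15.1%), against 7.23% of all loci, and called higher for 111 (6.67%). Runs of at least 3 called loci in 1 direction numbered 42 higher and 36 lower. Neighbours are often copies of 1 gene, and reads shared between copies were not tested as a part of this.

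The longest run higher in SR86 held 7 loci of chromosome 10, LOC_Os10g21224 to LOC_Os10g21310. Its annotations are those of plastid genes: chains B and C of the ATP synthase, the large chain of ribulose bisphosphate carboxylase, the plastid ribosomal protein L33 and a photosystem II apoprotein, and 2 loci had no annotation. The carboxylase locus LOC_Os10g21268 had 46.5, 36.1 and 9.89 FPKM in SR86 and 3.07, 5.47 and 1.04 FPKM in R1. The ribosomal L33 locus LOC_Os10g21308 had 59.8, 21.0 and 22.8 FPKM in SR86 and 2.49, 2.95 and 3.34 FPKM in R1. Their log2 fold changes were 3.03 (adjusted p = 0.0229) and 3.19 (adjusted p = 0.00309). Reads of nuclear copies of plastid genes can come from the plastid, whose summed value was also higher in SR86 (406 to 939 FPKM, against 185 to 307 FPKM in R1), and this part was not tested. Calls of 5 of the 7 loci were lost both without R1 FW1 and without R1 FW3, with an adjusted p of 0.0783 and 0.0827 at the carboxylase locus, whose call was also lost without SR86 FW1 (0.0598) or SR86 FW2 (0.0766).

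The longest run lower in SR86 held 6 loci of chromosome 8, LOC_Os08g10260 to LOC_Os08g10330. The first is an NBS-LRR resistance protein and the other 5 are all annotated as SHR5-receptor-like kinases. The kinase LOC_Os08g10320 had the highest level, at 11.5, 25.5 and 41.1 FPKM in SR86 and 69.1, 64.8 and 68.6 FPKM in R1 (log2 fold change -1.53, adjusted p = 0.0371). LOC_Os08g10310 had the largest fall, at 0.05, 0.11 and 0.04 FPKM in SR86 and 4.28, 3.91 and 3.88 FPKM in R1 (log2 fold change -3.0, adjusted p = 0.000134). This call held in all fits without 1 library, and the other 5 were lost both without R1 FW1 and without R1 FW3, with an adjusted p of 0.117 and 0.12 at LOC_Os08g10320, also lost without R1 FW2 (0.0922) or SR86 FW2 (0.0873). LOC_Os08g10320 had 12.5, 10.8 and 12.1 FPKM in SR86 roots in SW, near the value of SR86 FW1 and below those of SR86 FW2 and FW3.

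Neighbours with the same annotation could also move apart. Of 127 neighbouring called pairs with the same annotation, 35 were called in opposite directions, and 10 of these had an annotation that names a function, beside 45 pairs of that kind called in the same direction. The widest pair was of thaumatins on chromosome 12. LOC_Os12g43390 had 1.03, 0.43 and 1.17 FPKM in SR86 and 47.5, 31.3 and 62.3 FPKM in R1 (log2 fold change -5.10, adjusted p = 0.000221), next to the rise of LOC_Os12g43410 given above. The level of the pair thus lay mostly at 1 copy in SR86 and more at the other in R1.

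On chromosome 7 the fall of the L44 locus LOC_Os07g33860 stood beside a rise of its neighbour LOC_Os07g33898, at 26.4, 31.1 and 31.4 FPKM in SR86 and 5.96, 4.76 and 2.45 FPKM in R1 (log2 fold change 2.69, adjusted p = 0.0018). On chromosome 11 the RPM1-type locus LOC_Os11g11950 had 5.77, 10.6 and 14.6 FPKM in SR86 and 0.07, 0.06 and 0.03 FPKM in R1 (log2 fold change 4.20, adjusted p = 0.000504). Its neighbour LOC_Os11g11960 had 1.01, 2.31 and 3.24 FPKM in SR86 and 15.02, 12.9 and 15.4 FPKM in R1 (log2 fold change -2.57, adjusted p = 0.00346). The remaining pair, on chromosome 1, had no named function: LOC_Os01g05150 had 6.47, 5.92 and 4.56 FPKM in SR86 and 0 in R1, and LOC_Os01g05250 had 0, 0.53 and 0.57 FPKM in SR86 and 4.83, 7.93 and 5.92 FPKM in R1. All 8 loci held their calls in each fit without 1 library. Reads were divided among alike copies by the authors' counting against the Nipponbare sequence, and the part of strain differences in sequence was not tested.

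**Figure D4:**
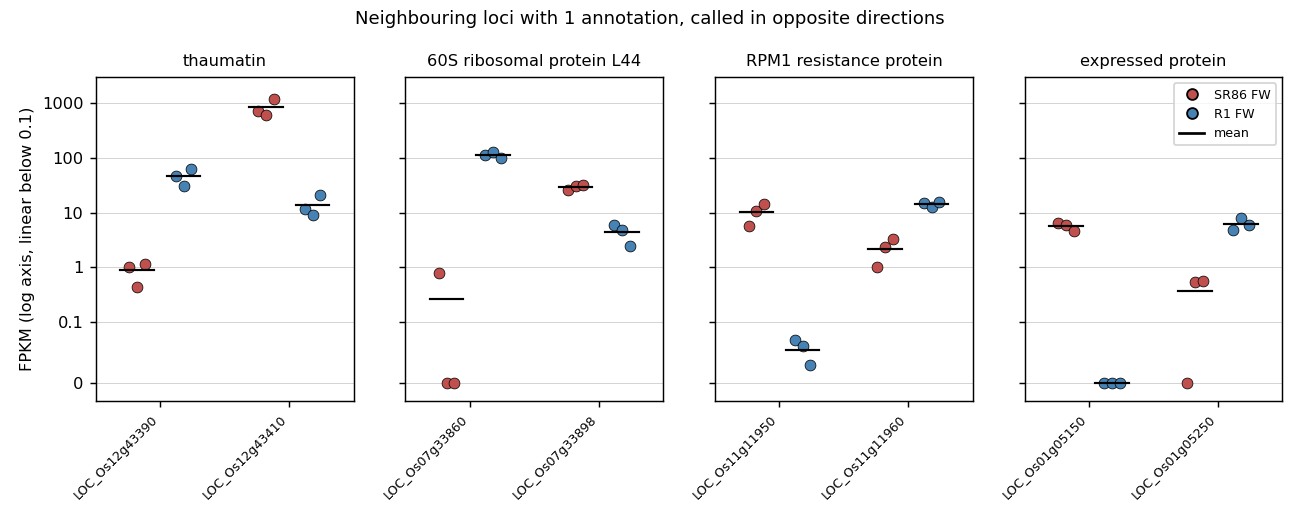
Points show FPKM in the 3 SR86 FW libraries (red, left) and the 3 R1 FW libraries (blue, right) at both loci of the 4 pairs of neighbours with 1 annotation and opposite calls, on a log axis that is linear below 0.1, with a black bar at each mean. In each pair the SR86 points lie above the R1 points at 1 locus and below them at the other.

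The share of called loci differed between chromosomes. It was highest on chromosome 11, with 113 loci higher and 145 lower of 1289 (20.0%), and on chromosome 12, with 131 higher and 119 lower of 1339 (18.7%). It was lowest on chromosome 3, with 165 higher and 161 lower of 2964 (11.0%). Without SR86 FW3 the shares were 27.1%, 26.3% and 16.8%, and without R1 FW1 11.6%, 10.5% and 5.94%. Chromosome 3 stayed below the other 2 in every fit without 1 library. Chromosomes differ in the kinds of genes they hold, and the shares were not tested against each other.

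**Figure D5:**
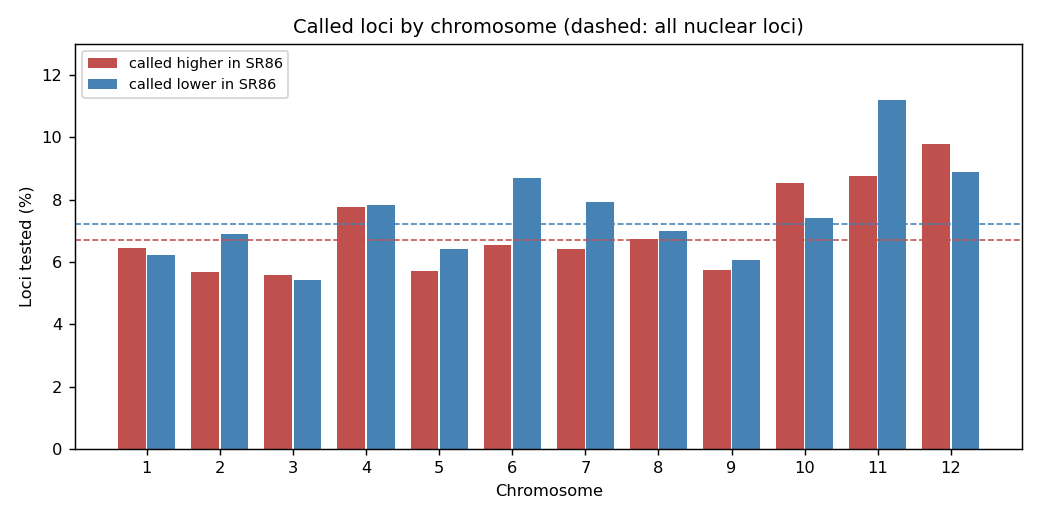
Bars show the percent of tested loci on each of the 12 chromosomes called higher (red, left) and lower (blue, right) in SR86, with dashed lines at the shares of all nuclear loci, 6.72% and 7.23%. Chromosome 12 had the highest share called higher (9.78%) and chromosome 11 the highest share called lower (11.2%).

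Fold changes also moved with transcript length. The trend was read from 2200 annotated loci that the study had listed for SW against FW and not for the strains, which share the SR86 FW libraries with this comparison. From the shortest to the longest of 6 groups of these loci, the median log2 fold change was 0.40, 0.31, 0.27, 0.06, -0.07 and -0.25. The shortest group was at 0.52, 0.41 and 0.35 over the R1 mean in SR86 FW1, FW2 and FW3, and the longest at -0.32, -0.29 and -0.16, so all 3 libraries showed it. After removal of this trend, the family median was 0.67 for core histones, 0.78 for ribosomal proteins, 1.18 for the transporters of nitrogen, phosphate and sulphate, 0.76 for metal proteins and 0.71 for aquaporins. It was -0.68 for receptor-like kinases, -0.65 for resistance proteins, -0.80 for ABC transporters, -0.98 for proteases, -0.78 for hormone enzymes, -0.89 for retrotransposon proteins and -0.88 for DNA transposon proteins. These medians kept their sign. The trend came from loci not listed for the strains, and its group medians ran only from 0.40 to -0.25. Larger family medians could therefore hardly change sign, so a kept sign is no test of length. Whether length itself moved the values was not tested.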

How the data were processed

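Root RNA of SR86 and R1 was sequenced from poly(A)-selected stranded libraries as 50-base reads. After trimming, the authors used Bowtie2 to align reads with the MSU6 transcripts and RSEM to estimate expression, which divides reads shared by copies among them, and deposited FPKM rounded to 2 decimals, 1 column for each of 9 libraries. CASAVA 1.8 is named in the submitters' processing notes. Whether the FPKM carry the authors' TMM scaling is not given in the sources used here. No value was missing.

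FPKM are not counts, so log2(FPKM + 0.5) was fitted for the 6 FW libraries with limma 3.58.1 (R 4.3.3, trend of the variance on the mean) over all 23168 features with a mean of at least 0.5, with Benjamini-Hochberg adjustment over all of them, two-sided. Nuclear loci are printed. A fold change is SR86 over R1. An exact permutation test of 3 against 3 libraries cannot go below p = 0.1, so none is given. P-values set the strain difference against the spread between the biological replicates, with 1 variance per feature for both strains. The standard deviation was larger in SR86 than in R1 at 82.1% of the tested loci, so this shared variance may describe neither strain well. Absolute depth was not derived, and low values rest on few reads. On simulated data with 23168 features, limma called 73.5% of 200 features changed by a log2 of 2, with 2.65% of its calls among unchanged features. The simulated noise was normal and had 1 spread per feature for both strains. In the data the median standard deviation was 0.297 in SR86 and 0.119 in R1, and many more loci differed. The simulated shares therefore do not carry over to the calls above.

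Locus annotations come from the study's lists, of which some were shortened, and families were made by matching words in them. For each family and direction, the called locus with the largest change was named if the libraries stood apart and the higher mean was at least 5 FPKM, and the largest of each class was given per library. Also named were the 5 loci with the highest mean among those at 0 in a strain with a named function, the longest runs of called neighbours and the 4 widest opposite pairs. The families, members and rules were chosen with earlier results of these data known. Of the feature names, 0 were in the reference gene table, so no sequence is shown.

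As alternatives, the pseudocount was set to 0.1 or 1, the filter was dropped or raised to a mean of 1, libraries were scaled by quantiles or by median-ratio size factors, the fit held all 9 libraries or a block for the replicate number, and each library was left out in turn. Equal sums over nuclear loci and removal of a length trend (lowess in statsmodels 0.14.6, span 0.5, with relative lengths from the ratio of FPKM to the per-million values in the study's lists) were chosen after seeing the data. Columns of the study's own comparisons were not used. Python 3.11.15, pandas 2.3.3, numpy 2.4.6 and matplotlib 3.10.9 were used.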

Additional observations from a re-analysis of the deposited data

Results flagged for a closer look

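Features outside the nuclear loci had higher sums in SR86 roots in FW. Those with a mean of at least 0.5 FPKM were in the fit and its adjustment, but the calls of the report are of nuclear loci alone. The summed FPKM of the mitochondrial genome features averaged 1930 ± 821 in SR86 and 370 ± 160 in R1 (SD, n = 3 each). The plastid genome features averaged 709 ± 274 in SR86 and 240 ± 61.7 in R1, and the pre-tRNA features 526 ± 300 in SR86 and 80.1 ± 39.1 in R1. In each of these sums every SR86 library was above every R1 library, SR86 FW3 the lowest of SR86.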

How the results depend on the processing

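Across the 9 alternatives that kept all libraries of the strains, 2635 to 3558 loci were called, against 3214, with 1309 to 1743 higher and 1319 to 2056 lower in SR86. Of the 3214 calls, 3087 held with median-ratio size factors and 2975 with equal sums over nuclear loci, where 38.9% of the calls were higher in SR86, against 48.2%. With 1 library left out, 1692 to 4709 loci were called, 911 to 2063 of them higher and 781 to 2646 lower, the fewest without R1 FW1 and the most without SR86 FW3; 1682 and 3045 of the 3214 calls held in these 2 fits. Each fit held 1 variance per locus for both strains, and with 2 libraries left in a strain, that strain's part in it rests on them. Of the 100 named loci 65 held their call in all fits without 1 library, 15 lost it in at least 1 of the other alternatives and none changed sign. The cause was not tested. The replicate number as a block gave 3430 calls, 3157 of them shared; same-numbered libraries deviated together with r = -0.03, 0.22 and 0.26, so the numbers were not taken as pairs, and SR86 FW1 correlated best with R1 FW2 (0.21). Among the 43 family medians, 2 changed sign with another scaling (cytochrome P450 with equal sums, potassium and sodium transporters with quantile normalization) and 4 after removal of the length trend (expansins, cellulose synthases, laccases and auxin proteins). Depth limits the loci near 0, whose fold changes depend on the pseudocount.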
